A study of Canis lupus familiaris with 9 samples.

Results

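Immediate early genes were followed in skeletal muscle of beagles that had eaten without restriction or had been held at constant body weight. The list held 10 genes: FOS, FOSL2, JUN, JUNB, JUND, ATF3, EGR1, MYC, IER2 and DUSP1. Members were found as all probe sets of the array whose only gene symbol in the platform annotation was 1 of these, which gave 15 of the 43035 probe sets. They covered 9 of the 10 genes, and JUND was not analysed here because no probe set carried its symbol alone. The probe set of highest mean stands for its gene, and the others are given beside it.

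The ad libitum group was 5 intact female beagles (animals 2, 5, 6, 7 and 8) and the control group was 4 (animals 1, 3, 4 and 9), all 4 years old. Treatment was assigned at random, every dog ate Purina Pro Plan Performance Formula, and controls received the amount that kept baseline body weight. Muscle was taken after 24 weeks and an overnight fast, and the RNA of each dog was put on 1 Affymetrix canine array. The labels name no muscle, no biopsy method and no time of day.

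Immediate early genes are transcribed within minutes of a stimulus, from promoters that need no newly made protein, and most of their mRNAs are short-lived. Growth factors, stretch, contraction and cell stress reach them through MAP kinases, serum response factor and CREB. In skeletal muscle they are known for a brief induction by exercise and by injury. FOS and JUN proteins pair through leucine zippers into the transcription factor AP-1, while DUSP1 is a phosphatase that switches MAP kinases off and so is a member of the same response rather than a transcription factor.

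All values are deposited GCRMA values, taken as log2, and a difference is always ad libitum minus control. Array pairs correlated at r = 0.976 to 0.994 over all probe sets that were not controls. The labelled tissue carried its markers: the mean of 12 skeletal muscle markers, among them ACTA1, MB, TTN and MYH7, lay at 14.66 to 15.41 in ad libitum dogs and at 15.20 to 15.43 in control dogs. RYR1, also on the list, was below the filter at 3.07 to 3.51 in ad libitum and 3.51 to 3.88 in control dogs, and no probe set carried the CKM symbol alone. Of the 12 markers, 4 had higher and 8 had lower means in ad libitum dogs, and 0 passed the test. The 3' minus 5' value of the GAPDH control probe sets, a sign of RNA integrity, was 2.14 to 2.29 in ad libitum dogs and 1.96 to 2.22 in control dogs.

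No member passed the test. A probe set was tested if it exceeded log2 4 on at least 4 arrays, which 18394 probe sets did, and limma p-values were adjusted over all of them by the Benjamini-Hochberg method. At an adjusted p under 0.05, 0 of the 7 tested members and 0 of the 18394 probe sets (0%) were called. At an unadjusted p under 0.05 limma gave 4 of the 7 members: FOSL2, MYC and DUSP1, with lower means in ad libitum muscle, and IER2, with a higher mean. Over all tested probe sets the same threshold gave 5.91%, of which 2.21% were lower and 3.71% were higher in ad libitum dogs. FOSL2 was the only one of the 7 whose groups did not overlap, where 1.44% of all tested probe sets did not. The median difference of the 7 tested members was 0.12, and that of all tested probe sets was -0.01.

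**Figure D1:**
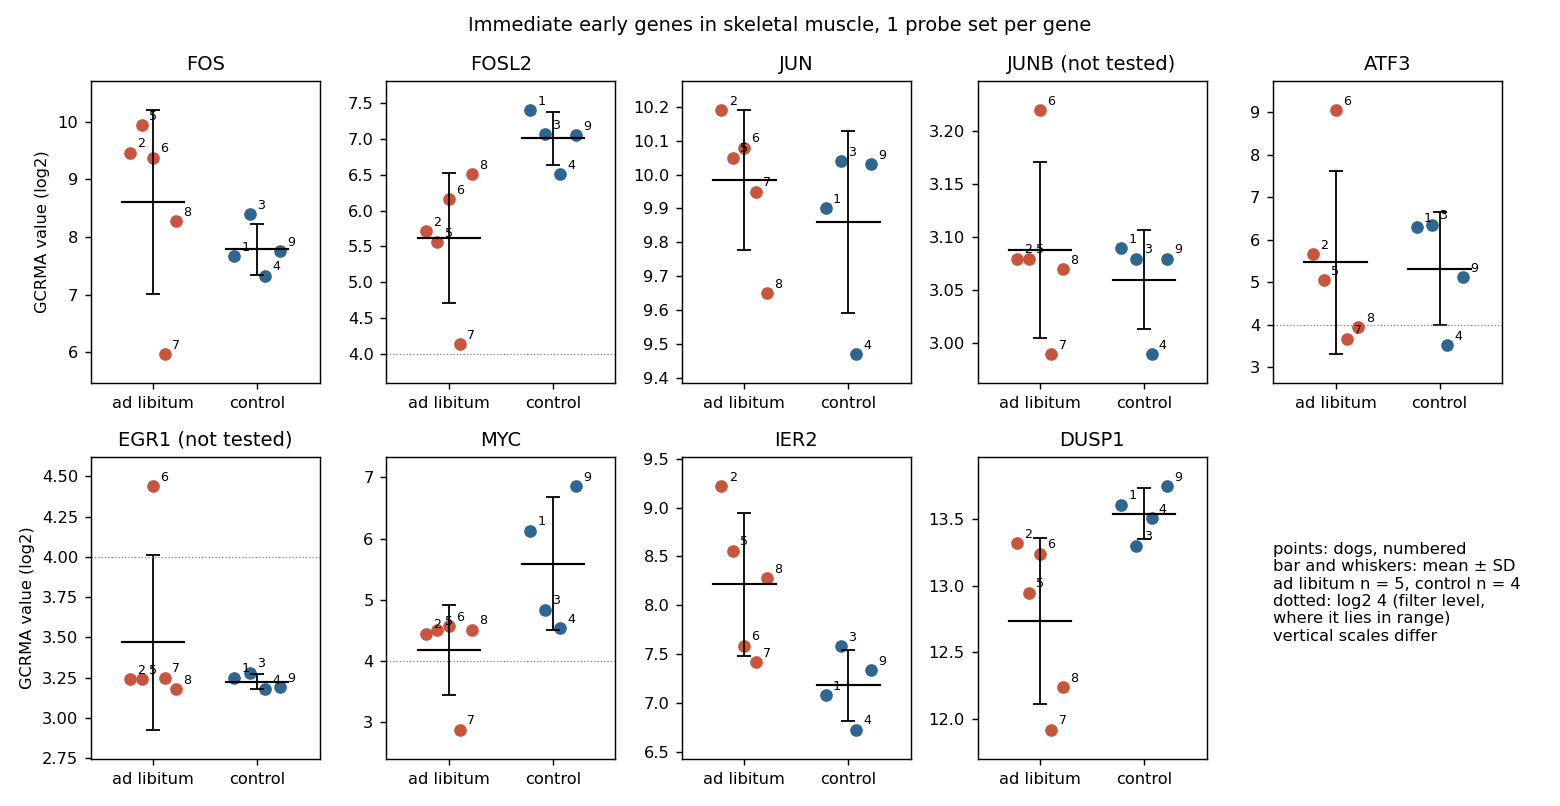
Each panel plots the log2 GCRMA value of 1 member in every dog (points with animal numbers, 5 ad libitum dogs left of 4 control dogs), with the mean and SD as bar and whiskers and vertical scales that differ between panels. FOSL2 is the panel without overlap, ad libitum dog 7 is lowest for FOS, FOSL2, MYC and DUSP1, and ad libitum dog 6 is highest for ATF3 and EGR1. It is also highest for JUNB, but all JUNB values lie below the filter.

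FOS, the best known FOS family subunit of AP-1, had a wide spread among the ad libitum dogs that rested on 1 of them, dog 7. It stood at 9.46, 9.94, 9.37, 5.97 and 8.27 in ad libitum dogs 2, 5, 6, 7 and 8, against 7.66, 8.39, 7.33 and 7.75 in control dogs 1, 3, 4 and 9. Dogs 2, 5 and 6 lay above every control dog, dog 8 lay within the control range and dog 7 lay below it. The ad libitum mean was 8.60 ± 1.59 (SD, n = 5) and the control mean 7.78 ± 0.45 (SD, n = 4), a difference of 0.82 (SE 0.73, 95% interval -0.81 to 2.45, adjusted p = 0.865). Ad libitum values covered 3.98 log2 units and control values 1.06, but 1.67 in ad libitum dogs without dog 7 and 0.42 in control dogs without dog 3. With dog 7 left out the FOS difference was 1.48, with an unadjusted limma p of 0.00335 and adjusted p = 0.181.

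The second FOS probe set had the larger difference, 1.13 (SE 0.39, adjusted p = 0.796), with less overlap. It stood at 6.23, 6.08, 5.74, 4.34 and 4.80 in ad libitum dogs 2, 5, 6, 7 and 8 and at 3.95, 4.27, 4.50 and 4.49 in control dogs 1, 3, 4 and 9. Here 4 of 5 ad libitum dogs exceeded all controls, and dog 7 lay among them. Over the 9 dogs both FOS probe sets correlated at r = 0.81 and rho = 0.70 (exact permutation p = 0.00645 and 0.0433, and r = 0.88 without ad libitum dogs 5 and 7).

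FOSL2, also called FRA2, is a more stable FOS family subunit that replaces FOS in later AP-1 dimers. In ad libitum dogs 2, 5, 6, 7 and 8 it stood at 5.71, 5.56, 6.16, 4.14 and 6.51, against 7.40, 7.07, 6.51 and 7.05 in control dogs 1, 3, 4 and 9. All 5 ad libitum dogs were below all 4 control dogs, but by a gap of only 0.006, between 6.508 in ad libitum dog 8 and 6.513 in control dog 4. Means were 5.62 ± 0.90 (SD, n = 5) and 7.01 ± 0.37 (SD, n = 4), which is 0.381 times the control level on the linear scale. The difference was -1.39 (SE 0.43, 95% interval -2.36 to -0.43), with adjusted p = 0.796 in limma and an exact permutation p = 0.0159 (two-sided, over all arrangements of the dogs, where the smallest possible exact p is 0.00794).

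The other FOSL2 probe set differed by -0.65 (SE 0.21, adjusted p = 0.796), and its groups overlapped. It ran from 4.60 in ad libitum dog 7 to 5.45 in ad libitum dogs 6 and 8, against 5.45 in control dog 4 to 6.12 in control dog 9. The value of 5.45 was identical in these 3 dogs, and the other 3 ad libitum dogs lay below all controls. Across the 9 dogs both FOSL2 probe sets ran together (r = 0.94, rho = 0.92, exact permutation p = 0.000165 and 0.00132, and r = 0.90 without the 2 dogs farthest from the median).

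JUN, the principal partner of FOS in AP-1, varied least among the tested members. It stood at 10.19, 10.05, 10.08, 9.95 and 9.65 in ad libitum dogs 2, 5, 6, 7 and 8, against 9.90, 10.04, 9.47 and 10.03 in control dogs 1, 3, 4 and 9. The groups overlapped through most of their range, with the lowest value in control dog 4. Means of 9.98 ± 0.20 (SD, n = 5) and 9.86 ± 0.27 (SD, n = 4) gave a difference of 0.12 (SE 0.16, adjusted p = 0.904). The 95% interval of that difference, -0.23 to 0.48, held changes of well under 1 log2 unit in either direction, and without control dog 4 the sign turned (-0.01).

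JUNB, a JUN family subunit that often counteracts JUN, was below the filter in every dog. Its 1 probe set ran from 2.99 to 3.22 in ad libitum dogs and from 2.99 to 3.09 in control dogs, so no test was made and its level cannot be read from this array. The highest value, 3.22, was that of ad libitum dog 6.

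ATF3, a stress-induced factor that pairs with JUN proteins, had the widest spread of the members. It stood at 5.66, 5.05, 9.04, 3.66 and 3.94 in ad libitum dogs 2, 5, 6, 7 and 8, against 6.29, 6.35, 3.52 and 5.12 in control dogs 1, 3, 4 and 9. Ad libitum dog 6 exceeded the next dog, control dog 3, by more than 2 log2 units, and 3 dogs (ad libitum 7 and 8 and control 4) lay below log2 4. Means were 5.47 ± 2.16 (SD, n = 5) and 5.32 ± 1.32 (SD, n = 4), a difference of 0.15 (SE 1.08, 95% interval -2.27 to 2.57, adjusted p = 0.988). Without dog 6 the difference was -0.74 and without control dog 4 it was -0.45.

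EGR1, a zinc finger factor that binds GC-rich promoters and is induced by many of the same signals as FOS, was seen above log2 4 in 1 dog. That was ad libitum dog 6, with 4.44, against 3.18 to 3.25 in the other 4 ad libitum dogs and 3.18 to 3.28 in control dogs. The second EGR1 probe set also had its highest value there, 2.94, with 2.39 to 2.41 in the other ad libitum dogs and 2.39 to 2.42 in controls. Neither probe set was tested. The ad libitum minus control differences, 0.25 and 0.10, were carried by that 1 dog, which was also highest for ATF3.

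MYC, a factor that pairs with MAX to drive genes of growth and ribosome production, was low in the ad libitum group and divided in the control group. It stood at 4.45, 4.50, 4.57, 2.88 and 4.51 in ad libitum dogs 2, 5, 6, 7 and 8, against 6.13, 4.84, 4.54 and 6.86 in control dogs 1, 3, 4 and 9. Ad libitum dogs 2, 5, 6 and 8 lay within a narrow band, and control dogs 1 and 9 stood well above the rest. Of the ad libitum dogs, 4 lay below all controls and dog 6 exceeded control dog 4. Means were 4.18 ± 0.73 (SD, n = 5) and 5.59 ± 1.09 (SD, n = 4), a difference of -1.41 (SE 0.53, 95% interval -2.61 to -0.21, adjusted p = 0.796, exact permutation p = 0.0159). Most of these values are near log2 4, so the size of the difference is uncertain. Without control dog 9 it was -0.99 and without control dog 1 it was -1.23, with unadjusted limma p of 0.0772 and 0.071.

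IER2, a small nuclear protein of the immediate early response, had a higher mean in ad libitum muscle. Values were 9.22, 8.56, 7.59, 7.42 and 8.28 in ad libitum dogs 2, 5, 6, 7 and 8, against 7.08, 7.58, 6.73 and 7.34 in control dogs 1, 3, 4 and 9. Of the ad libitum dogs 4 exceeded all controls, though dog 6 did so narrowly (7.59 against 7.58 in control dog 3), and dog 7 lay among the controls. The ad libitum mean was 8.21 ± 0.73 (SD, n = 5) and the control mean 7.18 ± 0.36 (SD, n = 4), a ratio of 2.04 on the linear scale. The difference was 1.03 (SE 0.36, 95% interval 0.21 to 1.84), with adjusted p = 0.796 in limma and an exact permutation p = 0.0476. Without control dog 4 it was 0.88, with an unadjusted limma p of 0.057. The second IER2 probe set was below log2 4 in all dogs but ad libitum dog 2, at 4.52, and differed by 0.39 without a test.

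DUSP1, which dephosphorylates p38, JNK and ERK MAP kinases, was lower on average in ad libitum muscle by all 3 of its probe sets. It stood at 13.32, 12.95, 13.24, 11.92 and 12.24 in ad libitum dogs 2, 5, 6, 7 and 8, against 13.61, 13.30, 13.51 and 13.75 in control dogs 1, 3, 4 and 9. Dogs 5, 6, 7 and 8 lay below all controls, and dog 2 was between the lowest control dogs. Ad libitum dogs covered 1.40 log2 units and control dogs 0.45, or 0.24 without control dog 3. Means were 12.74 ± 0.62 (SD, n = 5) and 13.54 ± 0.19 (SD, n = 4), a difference of -0.80 (SE 0.30, 95% interval -1.47 to -0.14, adjusted p = 0.796, exact permutation p = 0.0397), or 0.573 times the control level.

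The other DUSP1 probe sets differed by -0.96 (SE 0.32) and -0.87 (SE 0.37), with adjusted p = 0.796 for both and exact permutation p = 0.0397 and 0.0714. Probe sets of 1 gene read the same RNA on the same arrays, so they are not independent evidence of a group difference. Over the 9 dogs the 3 probe sets ran together, with r between 0.97 and 0.99, rho between 0.95 and 0.98, and exact permutation p of at most 3.31e-05 for r and 0.000353 for rho. The first probe set differed by -0.73, -0.78 and -0.68 without control dog 9, control dog 1 and ad libitum dog 8, with unadjusted limma p of 0.0597, 0.0503 and 0.0531, and by -0.60 without ad libitum dog 7.

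**Figure D2:**
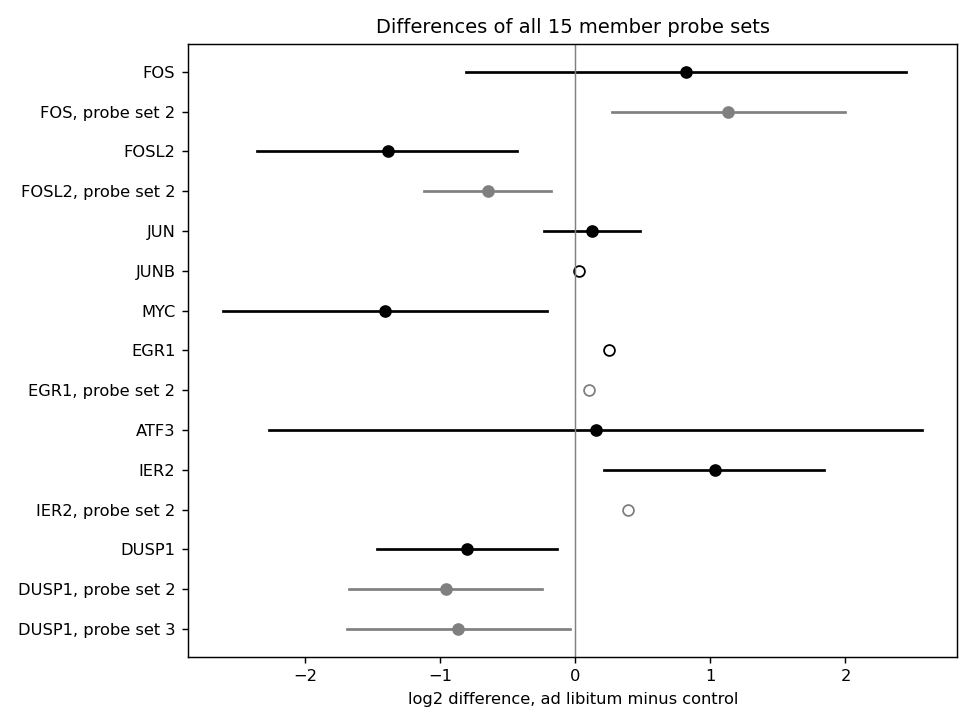
The log2 difference, ad libitum minus control, is drawn for all 15 member probe sets with its 95% interval from the limma fit (filled points, black for the probe set that represents the gene and grey for the others), and open points mark probe sets that were not tested. All probe sets of FOSL2 and DUSP1 lie left of 0 and those of FOS and IER2 lie right of it, while JUN and ATF3 lie close to 0 with a narrow and a wide interval.

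Between the groups the members differed in sign. FOS and IER2 had higher means in ad libitum muscle, FOSL2, MYC and DUSP1 lower ones, and JUN and ATF3 had differences smaller than their standard errors. The within-group SD of ATF3 (1.85) exceeded that of 99.7% of tested probe sets, and those of FOS (1.24), MYC (0.90) and FOSL2 (0.72) exceeded 98.8%, 96.6% and 93.7%. IER2 (0.60) and DUSP1 (0.49) exceeded 89.2% and 80.6%, and JUN (0.23) exceeded 31.2%. The median over all tested probe sets was 0.31. Without ad libitum dog 7 the SD of FOS was 0.59 and that of FOSL2 0.40, above 90.1% and 71.1% of tested probe sets, and without ad libitum dog 6 that of ATF3 was 1.15, above 98.4%.

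Single dogs stood at the extremes of several members. Ad libitum dog 7 was the lowest of the 9 dogs for 4 of the 7 tested members (FOS, FOSL2, MYC and DUSP1), and control dog 4 for the other 3 (JUN, ATF3 and IER2). Ad libitum dog 2 was highest for JUN and IER2, control dog 9 for MYC and DUSP1, ad libitum dog 5 for FOS, ad libitum dog 6 for ATF3 and control dog 1 for FOSL2. Ad libitum dog 5, highest for FOS, had rank 8 of 9 for FOSL2, and dog 2, highest for IER2, had rank 7.

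**Figure D3:**
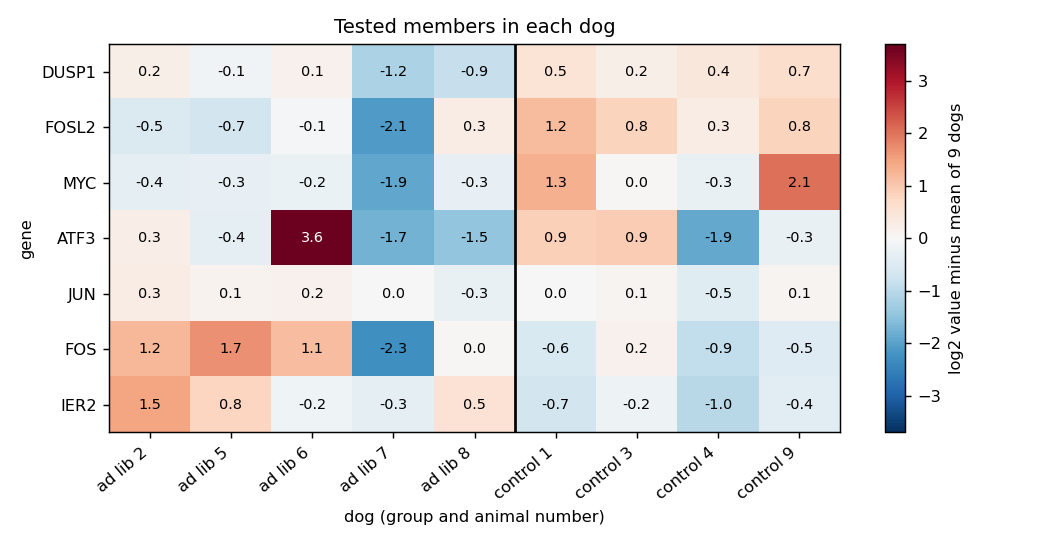
Colours and printed numbers give each dog's log2 value minus the mean of the 9 dogs, for the 7 tested members (rows) in 5 ad libitum dogs (left of the line) and 4 control dogs (right). Dog 7 is below the mean for FOS, FOSL2, MYC, ATF3, IER2 and DUSP1, and the 4 control dogs are above it for DUSP1 and FOSL2.

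Over the 9 dogs the 7 tested members gave 21 pairs, of which 17 had a positive Pearson r and 4 an unadjusted exact permutation p under 0.05. The r of deviations from the group means was above 0 in 21 of 21 pairs, from 0.03 to 0.79. These pairs share 7 genes and the same dogs, so they are not independent, and ad libitum dog 7 was lowest for 4 of the 7. Neither the count without dog 7 nor the share over pairs of other genes was taken. None of the 21 passed a Benjamini-Hochberg adjusted p of 0.05. The closest pair was FOSL2 and MYC, with r = 0.84 and rho = 0.88 (exact permutation p = 0.00537 and 0.00308, adjusted p = 0.113 and 0.0646) and r = 0.71 without ad libitum dogs 5 and 7. MYC and DUSP1 had r = 0.78 and rho = 0.73 (exact permutation p = 0.0152 and 0.0311, adjusted p = 0.16 and 0.151), and r = 0.46 without ad libitum dog 7 and control dog 9. FOSL2 and DUSP1 had r = 0.72 and rho = 0.72 (exact permutation p = 0.0298 and 0.0369, adjusted p = 0.209 and 0.151), and r = 0.31 without ad libitum dogs 5 and 7. FOS and IER2 had r = 0.68 and rho = 0.83 (exact permutation p = 0.0446 and 0.00827, adjusted p = 0.234 and 0.0868), and r = 0.76 without dogs 5 and 7.

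FOS and DUSP1 illustrate how group and dog crossed. Their pooled r was 0.30 and rho -0.12 (exact permutation p = 0.421 and 0.776, adjusted p = 0.737 and 0.814), but the r of their deviations from the group means was 0.79. FOS and FOSL2 likewise had a pooled r of 0.17 and rho of -0.23 (exact permutation p = 0.658 and 0.552, adjusted p = 0.813 and 0.682) and an r of deviations of 0.67. Both pooled values turned negative without dogs 5 and 7, at -0.26 and -0.73. Ad libitum dog 7 was the lowest of all dogs for FOS, FOSL2 and DUSP1. The r of deviations was not taken without dog 7, so both values may rest on that dog alone. The groups are too small for a correlation within each.

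Cells other than muscle fibres also express immediate early genes, and the means of their markers differed between the groups. In bulk tissue, fewer cells of a type and less RNA per cell cannot be told apart. Of the fibroblast markers 12 of 12 had higher means in ad libitum muscle, of the adipocyte markers 13 of 14 and of the macrophage markers 8 of 8 tested (CD68, TYROBP, FCER1G, AIF1, CSF1R and MSR1 were below the filter), and 0 passed the test. The fibroblast mean lay at 8.33 to 11.98 in ad libitum and 8.20 to 9.59 in control dogs, the adipocyte mean at 8.34 to 10.50 and 7.64 to 9.43, and the macrophage mean at 5.00 to 8.01 and 4.90 to 5.66. Dog 7 had the lowest of the ad libitum values in all 3.

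FOS and IER2 had the highest pooled correlations with these markers. For deviations from the group means the order was different. The highest r was that of MYC with the adipocyte mean, 0.86, followed by FOS with the fibroblast mean, 0.82. With the adipocyte mean DUSP1 had 0.76, FOSL2 0.73, FOS 0.71, IER2 0.57, ATF3 0.55 and JUN 0.49. Ad libitum dog 7, with the lowest ad libitum marker means, was lowest of all dogs for FOS, FOSL2, MYC and DUSP1. Its MYC value was 2.88, against 4.45 to 4.57 in the other ad libitum dogs. No r of deviations was taken without dog 7, so the values for these genes may rest on that dog alone. The correlation of FOS with the fibroblast mean was r = 0.82 and rho = 0.72 (exact permutation p = 0.00716 and 0.0369, adjusted p = 0.125 and 0.282 over 28 relations), and r = 0.93 without ad libitum dog 5 and control dog 3. With the macrophage mean it was r = 0.80 and rho = 0.68 (exact permutation p = 0.00896 and 0.0503, adjusted p = 0.125 and 0.282, and r = 0.66 without ad libitum dogs 5 and 6). With the adipocyte mean FOS had r = 0.73 and rho = 0.73 (exact permutation p = 0.0246 and 0.0311, adjusted p = 0.172 and 0.282) and IER2 had r = 0.76 and rho = 0.78 (exact permutation p = 0.0173 and 0.0172, adjusted p = 0.161 and 0.282). Without control dogs 3 and 4 these r were 0.92 and 0.72. None of the 28 passed the adjustment. They include the relations with the skeletal muscle mean. There FOSL2 had an r of deviations of -0.74 (pooled r = -0.17), and the other tested members had -0.21 for FOS to 0.46 for JUN. FOSL2 and DUSP1 had r = -0.13 and -0.02 with the fibroblast mean (rho = -0.38 and -0.13, exact permutation p of r = 0.742 and 0.967, of rho = 0.312 and 0.744), and adjusted p = 0.984 for both. Their deviations from the group means gave r = 0.63 and 0.73, and without ad libitum dog 5 and control dog 3 the pooled r was 0.22 and 0.12.

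**Figure D4:**
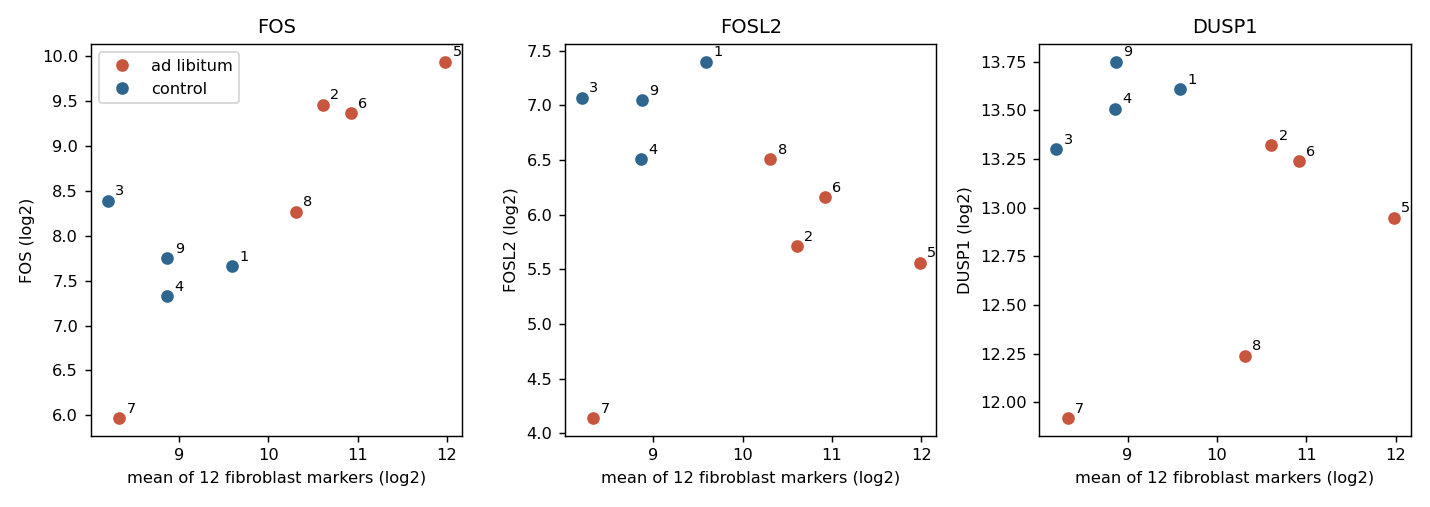
FOS, FOSL2 and DUSP1 (vertical axes, log2) are plotted against the mean of 12 fibroblast markers (horizontal axis, log2) for 5 ad libitum and 4 control dogs with their animal numbers. FOS is lowest in ad libitum dog 7 and highest in ad libitum dog 5, which also hold the lowest and highest marker means of the ad libitum dogs, while control dogs lie above ad libitum dogs for FOSL2 and for nearly all DUSP1 values, at low marker means.

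With the adipocyte mean as a covariate in the limma fit, FOSL2 differed by -2.18, MYC by -2.55 and DUSP1 by -1.35, larger than without it, with unadjusted limma p of 0.00057, 0.000131 and 0.00107. None passed (adjusted p = 0.559 for MYC and 1 for FOSL2 and DUSP1). The IER2 difference was 0.52, with an unadjusted limma p of 0.241, and those of FOS, JUN and ATF3 changed sign, to -0.48, -0.04 and -1.36. With the macrophage mean as the covariate FOSL2, MYC and DUSP1 differed by -1.77, -1.95 and -1.22, with unadjusted limma p of 0.00788, 0.0118 and 0.00306. IER2 differed by 0.81 in that fit, with an unadjusted limma p of 0.108, FOS by -0.43, JUN by 0.07 and ATF3 by -0.70, and adjusted p = 1 for all 7. Over all tested probe sets 2.54% had an unadjusted p under 0.05 with the adipocyte covariate and 2.41% with the macrophage covariate. Both covariates were themselves tied to the group. The adipocyte mean averaged 9.72 in ad libitum and 8.52 in control dogs, and the macrophage mean 6.38 and 5.25. With so few dogs the 2 cannot be separated well, so the adjusted differences are not better estimates than the unadjusted ones.

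**Figure D5:**
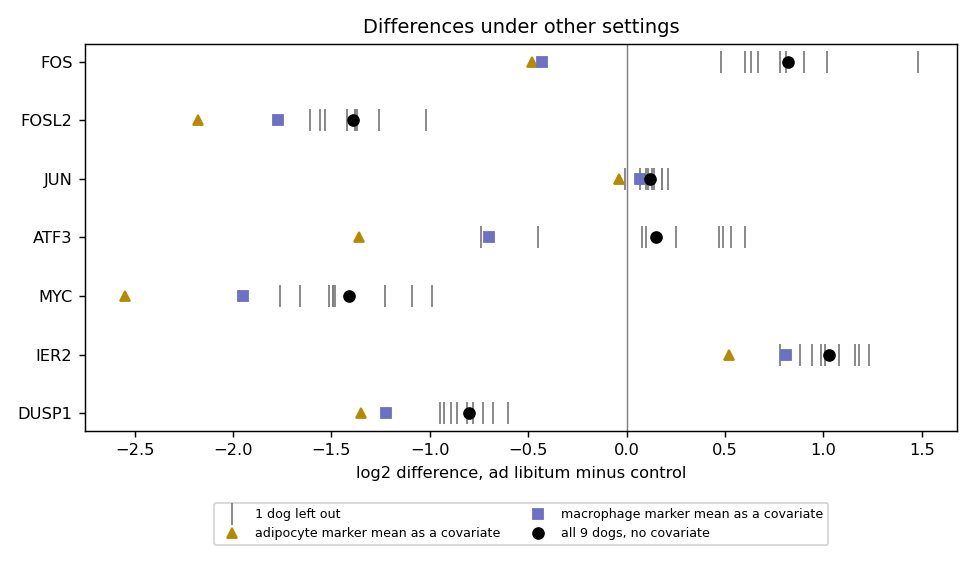
The log2 difference, ad libitum minus control, of the 7 tested members is shown for all 9 dogs (black circles), with each dog left out (grey ticks) and with a marker mean as a covariate (triangles for adipocyte, squares for macrophage markers). FOSL2, MYC and DUSP1 stay left of 0 and IER2 right of it under all of these, and FOS, JUN and ATF3 cross 0.

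The remaining cell type lists had 0 genes past the test. Endothelial markers split 6 higher and 5 lower, smooth muscle and pericyte markers 4 and 4, and 0 of either passed. Of the lymphocyte list only JCHAIN was tested (-0.05), and CD3E, CD3D, CD2, CD8A, CD4, MS4A1, CD79A and CD79B were below the filter. Of the neutrophil list S100A8 and S100A9 were tested, at 1.11 and 0.61, and of the red blood cell and platelet list 3 markers were, all lower in mean, with a median of -0.19. The 3 tested nerve and Schwann cell markers were all higher, with a median of 0.78.

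Other immediate early genes gave no called member either. Of 35 symbols listed 27 were on the array and 17 were tested, with 10 higher, 7 lower, a median difference of 0.06 and 1 unadjusted limma p under 0.05. FOSB, FOSL1, EGR2, EGR3 and EGR4, the nearest relatives of the listed factors, were all below the filter, at means of 1.65 to 2.63 in ad libitum and 1.66 to 2.66 in control dogs. PPP1R15A, a stress-induced regulator of translation, had a mean of 8.24 ± 0.36 in the 5 ad libitum dogs and 7.53 ± 0.41 in the 4 control dogs (SD), which differ by 0.71 (SE 0.24). NFIL3, a leucine zipper repressor, differed by -0.73 (SE 0.33) and KLF10, a zinc finger factor induced by TGF-beta, by 0.80 (SE 0.41). Adjusted p = 0.796 in limma for all 3.

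Genes upstream of the immediate early response had small differences. Of the 20 tested MAP kinase cascade genes 9 were higher and 11 lower, with a median of -0.01, and the lowest p was that of the kinase ARAF at -0.40 (SE 0.17), followed by MAPKAPK3 at -0.29 and MAP2K5 at 0.29 (SE 0.16 each). SRF, the serum response factor itself, differed by -0.07 (SE 0.13) and its cofactor ELK3 by 0.34 (SE 0.37), while ELK1, ELK4, MRTFA, MRTFB and MYOCD were below the filter. Among the 7 tested dimer partners of AP-1 and the CREB family 1 was higher and 6 lower (median -0.21), with CREM at -0.38 (SE 0.24), CREB1 at -0.33 (SE 0.24) and ATF2 at -0.21 (SE 0.18). None of these genes passed the test.

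MYC partners and the relatives of DUSP1 were measured too. Of 6 tested MYC network genes 2 were higher and 4 lower, with a median of -0.28. MAX, the obligate partner of MYC, had a mean of 8.99 ± 0.24 in the 5 ad libitum dogs and 8.68 ± 0.18 in the 4 control dogs (SD), which differ by 0.31 (SE 0.15). MLX, a MAX-like protein, differed by -0.42 (SE 0.20) and MXD4, which competes with MYC for MAX, by 0.24 (SE 0.14). Of 5 tested dual-specificity phosphatases 2 were higher and 3 lower, with a median of -0.06. DUSP6, an ERK-specific phosphatase, had means of 7.43 ± 0.66 in ad libitum and 6.57 ± 0.79 in control dogs (SD), which differ by 0.86 (SE 0.42), opposite in sign to DUSP1. DUSP3 differed by -0.17 (SE 0.21) and DUSP7 by -0.22 (SE 0.26). None of these MYC network or phosphatase genes passed the limma test.

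The genes most like FOS over the 9 dogs, among 7527 other tested genes, were MYH9 (r = 0.98), LOC485484 (0.96), SULF2 (0.95), PLTP (0.94) and CCN2 (0.94). MYH9 is the non-muscle myosin heavy chain, SULF2 an extracellular sulfatase, PLTP a phospholipid transfer protein and CCN2 a matrix-associated immediate early gene. Those of IER2 were KCTD5, CERS2, NAB2, PIP5KL1 and HIGD1B (0.93 to 0.95), of which NAB2 is a corepressor of EGR proteins. DUSP1 was most like TSPAN32 (0.97), followed by C2, ADAM33, LOC492106 and RPL17 (0.84 to 0.86), though rho was 0.33 for ADAM33 and 0.78 to 0.90 for the other 4. FOSL2 was most like SOCS2 (0.91), a feedback inhibitor of growth hormone signalling, and then RPL10, RBMX, TLE1 and FBXL20 (0.88 to 0.90). SOCS2 averaged 5.38 in ad libitum and 7.68 in control dogs, a difference of -2.31 (SE 0.41, adjusted p = 0.796 in limma). These are the highest of 7527 correlations per member over the same 9 arrays and are given as descriptions. They pool both groups, so a shared group difference enters them, and no r of deviations was taken.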

How the data were processed

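One Affymetrix canine array was run per dog, on Trizol-extracted total RNA labelled as biotin cRNA, per the labels' protocols. The authors normalized the arrays with GCRMA before they deposited the values, per the submitters' processing notes, and these were read as log2 from their range, 0.652 to 16.6. GCRMA quantile-normalizes arrays, so a shift shared by most transcripts would not appear.

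Of 43035 probe sets, 111 were controls and were removed, and of the remaining 42924 those exceeding log2 4 on 4 arrays or more (18394) were tested. Symbols are those of the 2016 platform annotation, in which 29264 probe sets carry 1 symbol, 439 several and 13332 none. Of the 9 members, 8 had their Entrez ID and symbol in the gene table of UU_Cfam_GSD_1.0, and JUNB was not matched. Positions are not given, as no genome build belongs to these values.

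Group differences came from limma 3.58.1 (R 4.3.3; lmFit, eBayes, two-sided, no covariate, 7 residual and 2.32 prior degrees of freedom) with Benjamini-Hochberg adjustment across all tested probe sets, which was tested on simulated data. Exact permutation tests were two-sided and used all arrangements of the dogs for group differences and all 362880 pairings for correlations (Python 3.11.15, numpy 2.4.6). Dogs are separate animals. The small number of arrays limits precision, and the standard error had a median of 0.197. Batches, scan dates and litters are not named in the labels, so none was tested. Alternatives were other filters, normalizations, eBayes settings and array weights, marker covariates, other probe sets and leaving out each dog. Ranges and SDs without each dog were added after seeing the data.

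The members and lists were chosen with earlier results of these data known, so no count over them is independent evidence. Named were all members, the 3 genes of lowest p per pathway list and the 5 genes most correlated with FOS. Likeness to JUNB was planned and dropped because JUNB lay below the filter. IER2, DUSP1 and FOSL2 took its place, chosen after their values were seen. FOSB, FOSL1, EGR2, EGR3, EGR4, JCHAIN, S100A8 and S100A9 were also named after their values were seen. A planned promoter motif search was not run, as promoter sequences were not used here.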

Additional observations from a re-analysis of the deposited data

Results flagged for a closer look

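Within each group, the highest and lowest dog of every member probe set was compared with its nearest neighbour by Dixon's test, in 30 groups, of which chance would mark about 1 in 20. It marked 5. EGR1 in ad libitum dog 6 stood at 4.44, against 3.25 in the next ad libitum dog, and its second probe set at 2.94, against 2.41. MYC in ad libitum dog 7 was 2.88, against 4.45 in the next dog above. The second IER2 probe set was 4.52 in ad libitum dog 2, against 3.62. JUNB in control dog 4 was 2.99, against 3.08, a small gap among values below the filter. All but MYC lie on probe sets that were not tested.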

How the results depend on the processing

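No paired analysis was possible because every animal number occurs in 1 group only. Under the alternatives run, 0 members passed an adjusted p of 0.05 (limma). Over all probe sets the count of 0 became 1 (CISH) with values below log2 4 raised to 4, and 0 to 1 when 1 dog was left out (1 without ad libitum dog 8, LOC489640). Members with an unadjusted limma p under 0.05 were 4, and 2 to 5 when 1 dog was left out: 2 without control dog 1 or control dog 9 (FOSL2 and IER2), and 5 without ad libitum dog 7, which adds FOS. Over all tested probe sets the share at that threshold was 5.91% with all dogs, 6.08% and 4.49% without control dogs 1 and 9, and 11.7% without ad libitum dog 7, so the 5 members stand beside a higher share everywhere. The count was 3 with the filter at log2 6 (MYC not tested), in the unmoderated model (MYC lost, p of 0.0526) and with either covariate (IER2 lost). The share over all tested probe sets was 6.14% with that filter and 4.69% in the unmoderated model. It was 2.54% with the adipocyte and 2.41% with the macrophage covariate. Members whose groups did not overlap were 1 (FOSL2), 2 with cyclic loess and 2 with each array centred on its median (FOSL2 and DUSP1), and 1 to 3 with 1 dog left out: 3 without control dog 3 (FOSL2, IER2 and DUSP1), and 2 without ad libitum dog 2, 6 or 7 or control dog 4. The share of 1.44% over all tested probe sets belongs to the main fit with all dogs. No such share is given for these alternatives, and groups of fewer dogs separate more easily. FOSL2 (-2.18 to -0.65), MYC (-2.55 to -0.99), DUSP1 (-1.35 to -0.60) and IER2 (0.39 to 1.23) kept their sign under all alternatives. FOS turned to -0.48 with the adipocyte and -0.43 with the macrophage covariate, and ran from 0.48 to 1.48 with 1 dog left out. JUN turned to -0.04 with the adipocyte covariate and ran from -0.01, without control dog 4, to 0.21. ATF3 turned to -1.36 and -0.70 with the adipocyte and macrophage covariates, and ran from -0.74, without ad libitum dog 6, to 0.60, being -0.45 without control dog 4. The cause was not tested. Low signal limits JUNB, EGR1 and the second IER2 probe set, which were below the filter, and MYC, ATF3 and the second FOS probe set in those dogs whose values lie near or below log2 4.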
